A study of Mus musculus with 2 samples.

Results

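Heat shock and chaperonin genes were examined on whole-transcript arrays of ILCreg cells, as the labels call regulatory innate lymphoid cells. They had been sorted from small intestine. The donors were IL-10-GFP knockin mice of the C57BL/6 strain, 8 weeks old. Members were taken from a list of 39 mouse gene symbols of the HSP70, HSP90, HSP40, small heat shock protein, chaperonin and co-chaperone families, and a member was measured where a feature of the array carried its symbol and no other. This gave 32 measured members out of 28281 named genes. The series holds 2 arrays of this 1 group, with no other cell population, so the members could be set against signal read without transcript, against all named genes, and between the arrays. The knockin places green fluorescent protein at the Il10 locus, and both arrays share that genotype. Post-sort purity was given as over 95%, without the gates used. The labels do not state that the arrays stand for different animals or sorting runs, so their spread may be a technical one.

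Molecular chaperones bind unfolded or partly folded proteins. HSP70 proteins hold and release such clients in a cycle driven by ATP, HSP40 proteins bring clients to them, and nucleotide exchange factors reset the cycle. HSP90 proteins act late in the folding of kinases and receptors, chaperonins enclose clients in a barrel, and small heat shock proteins keep clients from aggregating without ATP. Under heat or other protein-damaging stress, heat shock factors bind repeats of a short sequence in the promoters of many of these genes. The list is called cytosolic, but the listed Hspa9, Hspd1 and Hspe1 encode proteins that work in mitochondria.

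Promoter windows were searched for exact matches to the sequence that heat shock factors are known to bind. RefSeq windows of 300 bases (250 before to 50 after an annotated start, GRCm38.p6) were at hand for 31 of the 39 listed genes. The paired unit GAANNTTC, which reads the same on both strands, lay in a window of 12 of these 31 (38.7%), against 9.04% of 27025 genes with a window. A run of 3 units, GAANNTTCNNGAA or its reverse complement TTCNNGAANNTTC, contains that pair and the pair TTCNNGAA, and lay in windows of 4 members, Hsph1, Dnajb6, Hspd1 and Hspe1, against 0.662% of all genes. The pair TTCNNGAA, within such a run or outside it, lay in windows of 6 of 31 members, against 9.60% of genes. Such matches describe the letters of these windows and show no binding. A window without a match does not show that a gene lacks such a sequence. Imperfect repeats and sites outside the windows were not searched. Hspd1 and Hspe1, the mitochondrial chaperonin and its lid, lie head to head and share 1 run of 18 bases. The counts above hold this site for each of the genes. The run is printed on the strand of each gene (chr1:55088053-55088082), because the same units face both genes and the array values of both can be set beside it. Hspa1a, the stress-inducible HSP70 gene, is shown for its single pair (chr17:34972157-34972306, minus strand). The Hspa1a and Hspa1b windows were identical at 296 of 300 positions, and both are among the 12 with GAANNTTC. Hspb1 has a repeated pair (chr5:135887769-135887918, plus strand), and Dnajb6 a run of 3 units (chr5:29735748-29735897, plus strand). The Dnajb6 run begins at -46 from the annotated start used here and at -127 from another annotated start. Capitals mark the units, and all sequences run 5′ to 3′. The longer stretches end at the base before the start.
Hspd1: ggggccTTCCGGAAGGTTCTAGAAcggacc
Hspe1: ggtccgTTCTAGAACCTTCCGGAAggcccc
Hspa1a: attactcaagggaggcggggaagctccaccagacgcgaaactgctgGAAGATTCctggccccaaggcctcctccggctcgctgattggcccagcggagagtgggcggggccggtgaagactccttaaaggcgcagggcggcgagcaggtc
Hspb1: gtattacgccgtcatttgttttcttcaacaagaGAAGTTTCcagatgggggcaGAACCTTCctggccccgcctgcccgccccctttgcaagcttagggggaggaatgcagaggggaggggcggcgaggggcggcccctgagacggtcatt
Dnajb6: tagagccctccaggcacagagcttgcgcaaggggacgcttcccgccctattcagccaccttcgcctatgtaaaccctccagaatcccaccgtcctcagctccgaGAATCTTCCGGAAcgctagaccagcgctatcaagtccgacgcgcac

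Most measured members gave signal above the level read without transcript. The deposited values were read as log2 signal because of their range, with no log base stated. Above 16, the log2 of the highest reading a 16-bit scanner gives, lay 688 features of replicate 1 and 673 of replicate 2, so the values are no plain log2 intensities, and the step that gave them is not known. The threshold was the 95th percentile of 1678 olfactory, vomeronasal and taste receptor genes, 6.74 for replicate 1 and 6.19 for replicate 2. Genes count as above it when both arrays put them there. Of 32 measured members 26 (81.3%) were above the threshold, against 31.7% of all named genes. Of 16188 protein-coding genes outside the receptors 6311 were above it. A further 2 members were above it on 1 array and 4 on neither. The median signal of the members was 8.57, against 5.43 over all named genes and 6.07 over protein-coding genes outside the receptors. The members' median was 8.39 without Hspa8, which was saturated. At the stricter 99th percentile 20 members were above, against 19.8% of all named genes. Probes differ in affinity, so these signals do not order the genes by transcript abundance. In such sorted bulk RNA fewer cells of a type and less RNA per cell cannot be told apart.

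**Figure D1:**
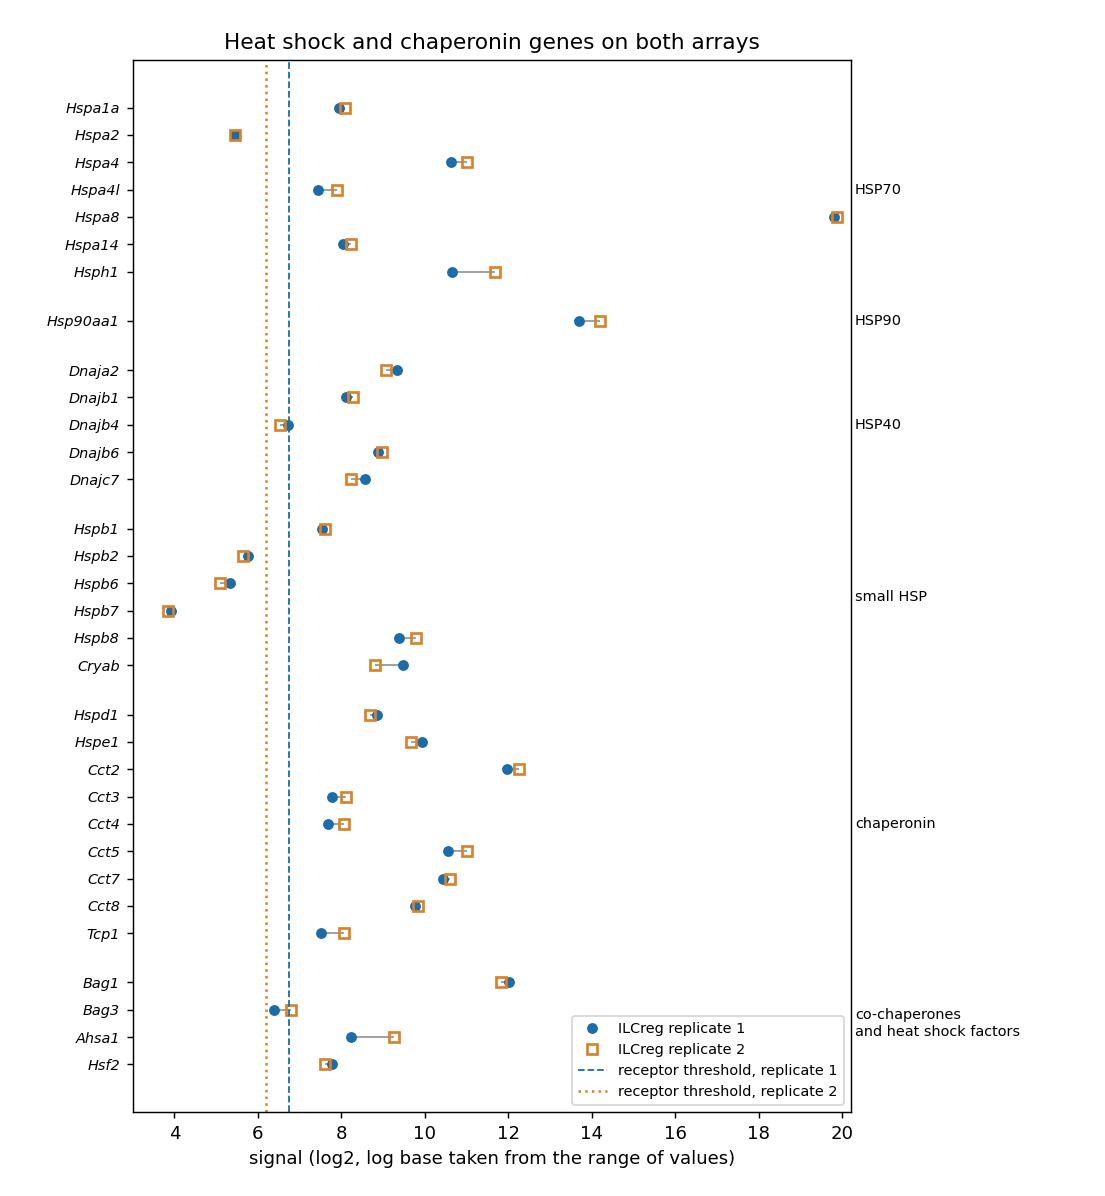
Signal (log2) of each of the 32 measured members on the arrays of ILCreg replicate 1 (filled circles) and replicate 2 (open squares), grouped by family, with each array's receptor threshold as a vertical line. The 9 chaperonin genes lie right of both lines, and Hspa2, Hspb2, Hspb6 and Hspb7 lie left of both.

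The sorted cells' labelled identity was set against marker lists. All 5 innate lymphoid and lymphocyte markers were above the threshold, Il10 among them with 10.59 and 11.05 on the arrays of replicates 1 and 2. So were 8 of 8 markers of intestinal epithelium, 6 of 6 measured markers of fibroblasts and stroma, 5 of 5 of smooth muscle, 4 of 4 of macrophages, 4 of 6 of T cells, 3 of 4 of endothelium and 3 of 4 of B and plasma cells. The highest marker of fibroblasts and stroma, Dpt, was saturated. The antibody joining chain gene Jchain, of plasma cells, was at 17.79 ± 0.45 (SD, n = 2). The highest of the other lists were Krt8 of epithelium (15.59), Lyz2 of macrophages (14.71) and Actg2 of smooth muscle (12.27). Ptprc (12.21) was the highest of the innate lymphoid and lymphocyte list, Cd3e (9.79) of T cells and Eng (8.38) of endothelium. Chaperone genes are active in all of these cell types, and their part in the members' signal was not tested. In a list of immediate early and dissociation stress genes 10 of 11 measured were above the threshold, from Fosb, a subunit of AP-1, at 17.36 ± 0.22 (SD, n = 2) to Ier3 at 4.61 ± 0.22, which was not.

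Among the HSP70 genes 6 of 7 measured were above the threshold. Hspa8, the constitutive cognate HSP70, was at the top of the scale of each array, 19.80 and 19.86. This top value is a ceiling that 14 named genes shared on both arrays, and the difference between the arrays is that of their ceilings. Hspa8 was represented by 4 features that carried its symbol alone, and all 4 were saturated. The top value is a lower bound for the signal of these 4 features only. A further 2 features carried the symbol Hspa8 beside that of another gene and entered no result. No feature with a member symbol beside that of another gene was saturated on both arrays. The identifiers of features carry a chromosome number that matched the chromosome of the gene for 99.7% of 20061 autosomal features and for 31 of the 32 members. Hspa8 was the exception. The 4 features with its symbol alone are numbered for chromosomes 1 (a pair of them), 6 and 14, whereas the gene lies on chromosome 9. The saturated value was thus read from features assigned to other places in the genome. It cannot be told apart from signal of copies of the sequence at those places.

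The stress-inducible Hspa1a read 7.94 and 8.08 on the arrays of replicates 1 and 2. Both values lay above the threshold of their array, by 1.20 and 1.89, and the arrays differed little (8.01 ± 0.10, SD, n = 2). Its near-identical neighbour Hspa1b had no feature of its own, so signal of Hspa1b transcripts in the Hspa1a reading cannot be told apart. The symbols Hspa1a and Hspa1b each also appeared on 1 feature beside another gene symbol, possibly the same feature for both. Features with several symbols entered no result. Every such feature of the members had a mean signal of 8.80 or more. Hspa4, an HSP110-type exchange factor for HSP70, read 10.63 and 11.01. Hsph1, the heat-inducible HSP110 gene of the same kind, read 10.65 and 11.68, the widest gap of the family. Their relative Hspa4l read 7.43 and 7.90, above both thresholds but not above the 99th percentile. Hspa14, an atypical HSP70 that works at the ribosome, read 8.04 and 8.24 and lay above both thresholds. Hspa2, best known from male germ cells, read 5.46 and 5.44 and lay below both thresholds. The mitochondrial Hspa9 and the divergent Hspa12a were not analysed here.

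For HSP90, the inducible cytosolic isoform Hsp90aa1 read 13.68 and 14.18, above the thresholds by 6.94 and 7.99 (13.93 ± 0.35, SD, n = 2). A further 2 features carried its symbol beside that of another gene and entered no result. The constitutive isoform Hsp90ab1 was not analysed here. Of the HSP90 partners on the list, Ahsa1, which speeds the ATPase of HSP90, read 8.23 and 9.27. Both values were above the threshold, with the array of replicate 2 the higher. Stip1, the adaptor that links HSP70 to HSP90, was not analysed here.

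Among HSP40 genes 4 of 5 measured were above the threshold and 1 was so on a single array. Dnajb1, the stress-inducible partner of HSP70, read 8.10 and 8.28. Dnajb6, a suppressor of protein aggregation, read 8.88 and 8.97, and its arrays were close (8.93 ± 0.06, SD, n = 2). Dnaja2, a general HSP70 partner, read 9.32 and 9.07 and was also above both thresholds. Dnajc7, which binds HSP70 and HSP90, read 8.56 and 8.23. These genes were all above the threshold, and the last named pair was lower on the array of replicate 2. Dnajb4 read 6.73 and 6.53, which was 0.02 under the threshold on the array of replicate 1 and 0.34 over it on that of replicate 2. Dnaja1 had no feature with its symbol alone.

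The small heat shock protein genes were divided. Hspb8, the partner of Bag3 in chaperone-assisted autophagy, read 9.39 and 9.80. Cryab, alpha-B crystallin, read 9.47 and 8.80, with the array of replicate 1 the higher. Hspb1, the stress-inducible HSP27 gene whose promoter is shown above, read 7.53 and 7.61. These 3 of 6 measured genes were above the threshold. Hspb2, the head-to-head neighbour of Cryab, read 5.75 and 5.65. Hspb6, known from smooth and striated muscle, read 5.34 and 5.09. Hspb7, known from heart muscle, read 3.91 and 3.85. All 3 lay below the threshold on both arrays, while the 5 measured smooth muscle markers, from Des at 8.77 ± 0.27 to Actg2 at 12.27 ± 0.24 (SD, n = 2 each), lay above it on both.

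All 9 chaperonin genes were above the threshold on both arrays, with a median signal of 9.80. The genes of the cytosolic chaperonin CCT, the ring that folds actin and tubulin, made up 7 of them. Cct2 read 11.95 and 12.25 and Cct5 read 10.55 and 11.00. Cct7 read 10.44 and 10.61 and Cct8 read 9.76 and 9.85. The 4 genes named so far were also above the 99th percentile. Cct3 read 7.77 and 8.10, Cct4 read 7.69 and 8.07, and Tcp1, the first subunit, averaged 7.78 ± 0.39 (SD, n = 2). The last 3 lay above both thresholds but not above the 99th percentile. Since probes differ in affinity, the unequal signals do not give the proportion of the subunits. Of the mitochondrial pair that shares the printed heat shock units, Hspd1 (HSP60) read 8.86 and 8.69 and Hspe1 (HSP10) read 9.93 and 9.66, both above the threshold and both lower on the array of replicate 2.

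Of the remaining co-chaperones and heat shock factors 2 of 3 measured were above the threshold. Bag1, an exchange factor for HSP70, averaged 11.91 ± 0.13 (SD, n = 2). Hsf2, a heat shock factor known mainly from development, read 7.77 and 7.61 and lay above both thresholds. Bag3, a stress-inducible exchange factor, read 6.39 and 6.80, below the threshold on the array of replicate 1 and above it on that of replicate 2. Hsf1, the main stress-responsive factor, was not analysed here.

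Windows with at least 1 of the 2 pairs of heat shock units belonged to 12 measured members, of which 9 were above the threshold, with a median signal of 8.85. Windows with neither pair belonged to 15 measured members, of which 13 were above the threshold, with a median of 8.19. Of all named genes 31.7% were above it. Among members whose windows hold GAANNTTC, Hspb6 was below the threshold and Cct2 above it. Among those whose windows hold neither pair, Hspa2 was below the threshold and Hspa4 and Ahsa1 were above it. A link between the pairs and the signal was not tested.

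Other genes of the chaperone system that are not members were taken from 7 lists of 46 genes, of which 39 were measured. Of these 27 (69.2%) were above the threshold, against the 31.7% of all named genes, and 15 were above the 99th percentile. Among HSP90 partners 6 of 7 were above, from Ptges3, the p23 co-chaperone, at 10.53 ± 0.15 to the glucocorticoid-responsive Fkbp5 at 5.12 ± 0.06 (SD, n = 2 each), which was not. Among HSP70 genes and partners 6 of 10 were above, with Sgta at 9.32 ± 0.54 and Bag2 at 4.33 ± 0.08 as the ends of the range. Among further HSP40 genes 6 of 8 were above, from the synaptic vesicle chaperone gene Dnajc5 at 9.79 ± 0.33 to Dnajb5 at 6.04 ± 0.22. Among prefoldin and chaperonin genes 4 of 5 were above, with the prefoldin subunit gene Pfdn5 at 11.76 ± 0.18. The exception was Cct6b, a CCT subunit known from testis, at 4.36 ± 0.18. Of 3 other genes listed by a small heat shock protein symbol, whatever their function, 1 was above, Hspb11 at 6.96 ± 0.40. Hspb9, known from testis, was at 3.61 ± 0.07. Of 3 other heat shock factor genes and regulators 1 was above, Hsbp1, which binds heat shock factor 1, at 13.34 ± 0.07, and Hsf5, known from testis, was at 3.92 ± 0.18. The 3 measured mitochondrial partners were above, from Grpel1, the exchange factor of Hspa9, at 8.90 ± 0.92 to Dnaja3 at 6.79 ± 0.04.

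**Figure D2:**
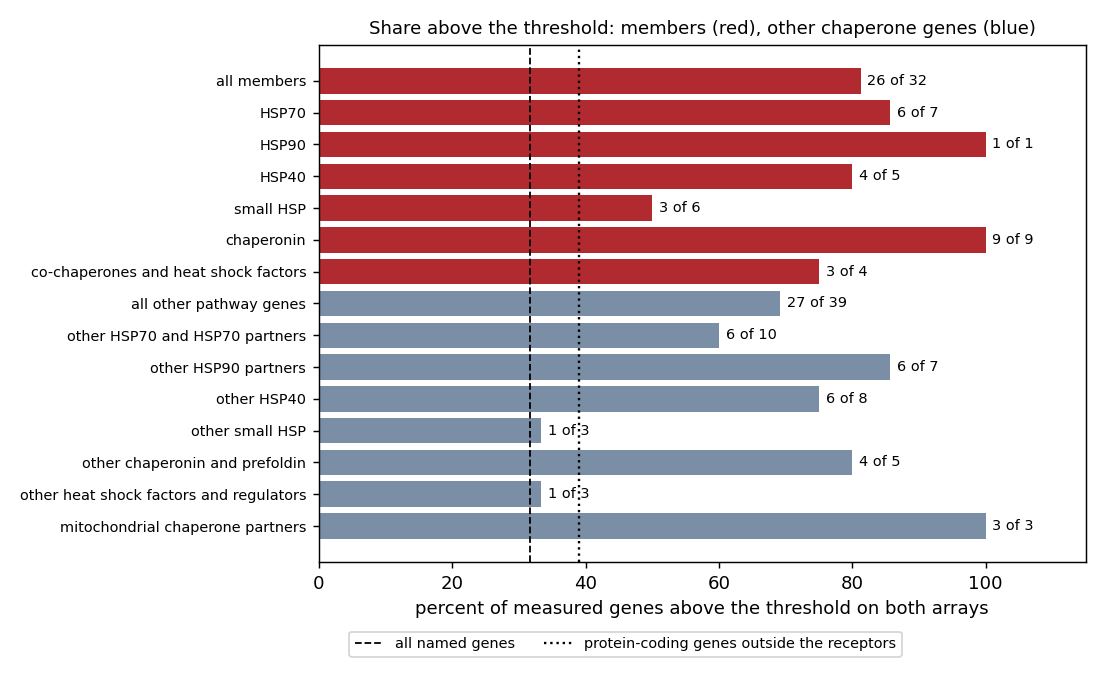
Percent of measured genes above the receptor threshold on both arrays for the members and their families (red) and for other chaperone genes (blue), with the number of genes beside each bar. The dashed line is the share of all named genes (31.7%), the dotted line that of protein-coding genes outside the receptors (6311 of 16188), and the chaperonin bar reaches 9 of 9.

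Between the arrays the members above the threshold differed about as much as all named genes above it. With 1 array against 1 no test was possible. Differences are replicate 2 minus replicate 1, less the median over all named genes, which was -0.05. Sign aside, their median was 0.27 for members above the threshold and 0.28 for all named genes above it. A difference was called when it passed 2-fold (1 on the log2 scale, if the log base is 2). Of 32 measured members 2 were called, both higher on the array of replicate 2, against 3.45% of all named genes in either direction and 1.48% in that direction. They were Ahsa1, with a centred difference of 1.09, and Hsph1, with 1.08. After quantile normalization the differences were 0.94 and 0.99, and no member passed 2-fold. Of all named genes above the threshold 4.16% passed it in either direction, and 4.19% after quantile normalization. The gene next in size was Cryab, with a centred difference of -0.62, higher on the array of replicate 1.

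Of the 26 members above the threshold 19 (73.1%) were higher on the array of replicate 2, against 55.3% of named genes above it and, for protein-coding ones, 63.9%. After quantile normalization 17 of the 26 were, against 45.5% of all named genes above it and 3386 of 6311 protein-coding ones. Dnajb6 and the saturated Hspa8 turned the other way. The median centred difference of the 26 was 0.22, against 0.05 over all named genes above the threshold and 0.13 over protein-coding ones, and it was 0.11 after quantile normalization. Each of the 7 CCT genes was higher for replicate 2, by 0.14 (Cct8) to 0.61 (Tcp1), also after quantile normalization, where Cct8 differed by 0.01. The mitochondrial Hspd1 and Hspe1 went the other way, with -0.13 and -0.22, also after quantile normalization. The HSP90 gene Hsp90aa1 differed by 0.55, and the HSP110 genes Hspa4 and Hspa4l by 0.43 and 0.52. Among the HSP40 genes Dnaja2 and Dnajc7 differed by -0.20 and -0.28. These sizes lie within the range from -0.72 to 0.80 that held the middle of all genes above the threshold, from the 5th to the 95th percentile. Of the 27 other chaperone genes above the threshold 13 were higher for replicate 2, and 11 were after quantile normalization, with a median centred difference of 0.00 before it. Among all 39 measured 1 passed 2-fold, Grpel1 with -1.26. Marker lists of several other cell types leaned toward replicate 2, counted over the markers above the threshold. Of B and plasma cell markers 3 of 3 were higher for replicate 2 (median centred difference 0.69). So were 3 of 3 endothelial markers (0.58) and 3 of 4 macrophage markers (0.47). These 3 counts were the same after quantile normalization. Of the 6 measured fibroblast and stromal markers Dpt and Dcn had differences set by the ceiling. The other 4, Lum and the collagen genes Col1a1, Col1a2 and Col3a1, were all higher for replicate 2, also after quantile normalization, with a median of 1.81. Smooth muscle markers were higher for replicate 2 in 4 of 5 cases (0.18) and T cell markers in 3 of 4 (0.30). Epithelial markers were so in 4 of 8 (0.02) and innate lymphoid and lymphocyte markers in 2 of 5 (-0.09). Their part in the differences of the members was not tested.

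**Figure D3:**
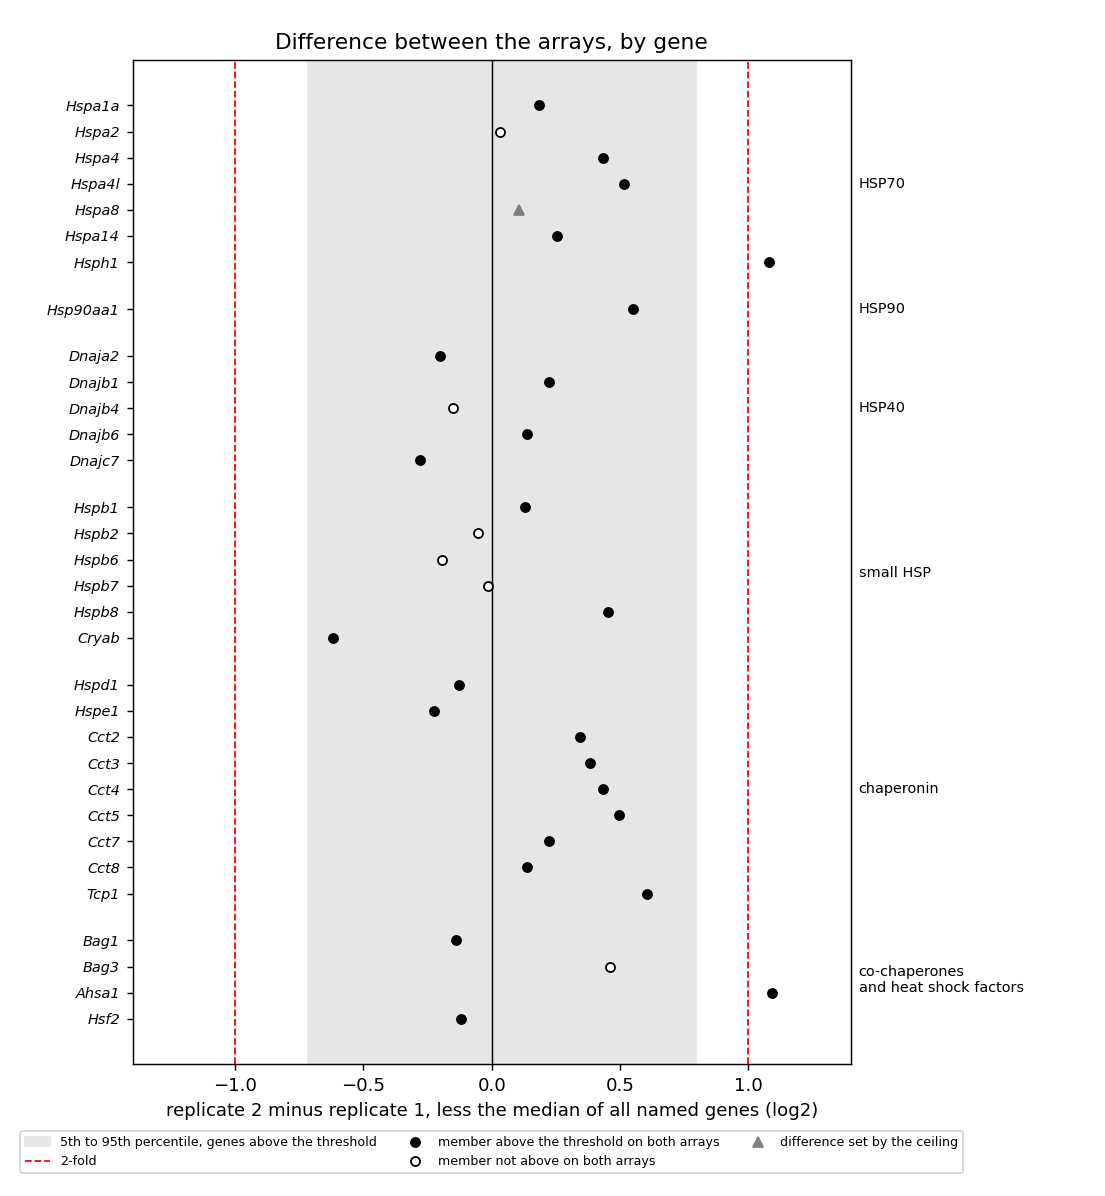
Centred difference between the arrays (replicate 2 minus replicate 1, log2) of each of the 32 measured members, with the 5th to 95th percentile of all genes above the threshold as a grey band and 2-fold as dashed lines. Hsph1 (1.08) and Ahsa1 (1.09) lie beyond the right line, and the 7 CCT genes lie right of 0 while Hspd1 and Hspe1 lie left of it.

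The distribution of signal shows the same counts by level. No member had a mean signal between that of Dnajb4 (6.63), which was above the threshold on a single array, and that of Hspb1 (7.57), which was above it on both.

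**Figure D4:**
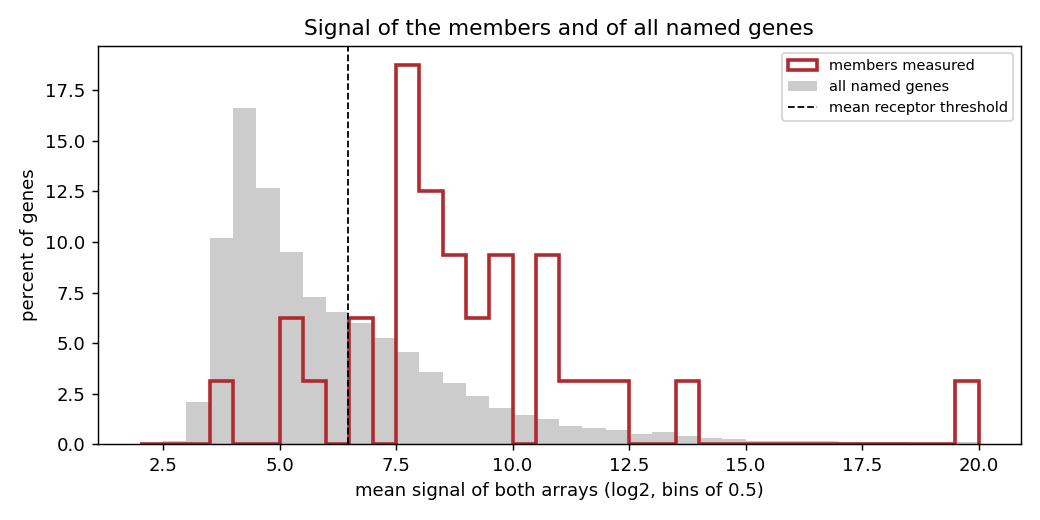
Percent of the 32 measured members (red outline) and of all 28281 named genes (grey) by mean signal of both arrays (log2, bins of 0.5), with the mean receptor threshold of 6.47 as a dashed line. The members have a median of 8.57 and all named genes a median of 5.43. Protein-coding genes outside the receptors, not drawn, have a median of 6.07. The isolated bin at the right end is the saturated Hspa8.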

How the data were processed

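The authors deposited 1 value per feature and array, taken here as log2 signal from its range (2.10 to 19.86); neither the log base nor the normalization nor the build is stated in the labels, and MAS5 is named, without a role, per the submitters' processing notes. Of 61344 features, 28573 carried 1 distinct gene symbol, 2014 several and 30757 none in the platform annotation. Only the first were used, with symbols updated through Entrez identifiers of the GRCm38.p6 gene table (783 features changed symbol), and a gene with several features was read from the one with the highest mean. Features within 0.001 of an array's highest value were called saturated (99 for replicate 1 and 85 for replicate 2). Features with a mean over 12 and a difference within 0.0001 of that between the ceilings were also counted as at the ceiling. With those saturated on either array this gave 39 named genes. Of the receptor genes themselves 2.44% were above the threshold on both arrays. Array medians were 5.02 and 4.90. With 1 group of 2 arrays no test was run and no p-value is given; the number of arrays limits the precision. Values are signals on each array or means ± SD. The calling of differences was tested on simulated data with planted differences. All members were described by rule. Of the stress list and the lists of other chaperone genes the highest and lowest were named, and marker genes were named after their values were seen. Members and lists were chosen with earlier results of these data known. Python 3.11.15, numpy 2.4.6 and pandas 2.3.3 were used.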

Additional observations from a re-analysis of the deposited data

Results flagged for a closer look

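Signal was seen in data left unused. Symbols of 5 members, Hspa1a, Hspa1b, Hspa8, Hsp90aa1 and Dnaja1, also appeared on 6 features together with symbols of other genes, which can be other members. These features entered no result. All 6 exceeded the threshold of each array, with mean signals from 8.80 to 17.33, and none was saturated on both arrays. For 2 members, Hspa1b and Dnaja1, such features were the ones that carried their symbol. The labels give no control sample to set them against.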

How the results depend on the processing

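The count of members above the threshold (26) was 28 at the 90th percentile of the receptors, 20 at the 99th, 27 with keratin-associated protein and Rhox genes in their place, and 26 to 28 without replicate 1 or replicate 2. At the 99th percentile Hspa4l, Hspb1, Cct3, Cct4, Tcp1 and Hsf2 were no longer above. Other chaperone genes above it numbered 27, and 15 at the 99th percentile, a stricter limit by its definition. Leaving out replicate 1 or replicate 2 gave 27 to 28. The median signal of the members (8.57) was 8.39 with features at the ceiling left out and 8.39 to 8.48 without replicate 1 or replicate 2. Members past 2-fold between the arrays (2) numbered 0 after quantile normalization, where the cause was not tested, and 4 past 1.5-fold. The median difference of the members (0.16) was 0.080 after quantile normalization, where the cause was not tested. The differences of Hspa8, Dnajb6 and Hspb7 changed sign after quantile normalization, and that of Hspa2 without centring. The 7 CCT genes were higher on the array of replicate 2 under every scaling and centring tried, which were alternatives chosen after seeing the data. Quantile normalization left Cct8 at 0.01. The other centrings moved all genes by a common small amount and left Cct8 at 0.09, so they add little. No paired analysis was possible because the series holds 1 group. Signal at or under the receptor level does not show that a transcript is absent.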
